A study of Mus musculus with 4 samples.

Results

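The complement genes followed here are 9: C1qa, C1qb, C1qc, C4b, C3, Cfb, C3ar1, C5ar1 and Serping1. They were taken by name, as every spot that is no control spot and whose gene name in the scanner files is one of these, which gave 29 spots of 11 probes. C3 and Serping1 had 2 probes each and the other 7 genes 1 each, and the 9 genes stand among 23753 genes tested. All 11 probes were well above background on all 4 arrays, so that no member was lost to the filter on dim probes.

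RNA came from ears of 4 mice, 48 h after treatment with 2,4-dinitrofluorobenzene (DNFB), a contact allergen, and each ear was read on 1 one-colour array. Mutant mice 1 and 2 had the genotype K14Cre RelAfl/fl: both Rela alleles are floxed, and a Cre recombinase under the keratin 14 promoter, active in basal keratinocytes, deletes RelA, the p65 subunit of NF-kB, in the epidermis. Wild-type mice 1 and 2 were RelAfl/fl, with the same floxed alleles and no Cre. All 4 ears were treated and none was left without DNFB, only the mutants carried Cre, and ages and sexes are not given in the labels used here. The ear is a mixed tissue, and its fibroblasts, vessels and immune cells do not use the keratin 14 promoter.

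Complement is a cascade of plasma and tissue proteins. C1q, built from the products of C1qa, C1qb and C1qc, binds antibody and dying cells and starts the classical pathway, which cleaves C4 and C2 to form an enzyme that cleaves C3. Factor B, the product of Cfb, builds the C3-cleaving enzyme of the alternative pathway. The fragments C3a and C5a act on leukocytes through the receptors C3ar1 and C5ar1, and the C1 inhibitor, product of Serping1, holds the first protease complex in check. In skin C1q comes mainly from macrophages, whereas C3, factor B and the C1 inhibitor are made by several cell types and are induced in inflammation.

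The probes are 60 bases long, and all 11 lie on the minus strand of the mouse build mm9. The following 5 are shown as examples of what was measured, chosen as those taken from background knowledge to lie in coding sequence. Each has at least 1 reading frame without a stop codon. So do the probes not shown, except that of C4b, so this does not tell coding from other sequence. No exon annotation of mm9 was at hand.
C1qa probe at chr4:136452409-136452468: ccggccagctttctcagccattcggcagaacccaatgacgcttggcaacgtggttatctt
C1qb probe at chr4:136436578-136436637: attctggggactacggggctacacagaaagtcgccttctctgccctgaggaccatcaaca
C3 dimmer probe at chr17:57343678-57343737: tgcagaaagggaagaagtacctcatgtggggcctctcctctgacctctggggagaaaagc
Cfb probe at chr17:34993502-34993858: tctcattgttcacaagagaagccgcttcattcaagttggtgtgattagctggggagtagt
Serping1 dimmer probe at chr2:84605968-84607474: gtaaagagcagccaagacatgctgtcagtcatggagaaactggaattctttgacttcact
The Cfb probe covers 357 bases of the genome and this Serping1 probe 1507 bases, more than the 60 bases of their sequence, so that each reads across an intron of its gene. The C1qa, C1qb and C1qc probes lie beside each other on chromosome 4, the C1qc probe at 136445766 to 136445825. The C4b probe, at 34865328 to 34865387 on chromosome 17, is paired in the files with transcripts of both C4b and its near-identical copy C4a, so its value cannot be given to one of them.

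Mutant ears were compared with wild-type ears to ask what an epidermal deletion of RelA does to expression in DNFB-treated skin. No complement gene passed the test between the groups: 0 of 9 passed limma's test at an adjusted p of 0.05, where 0.0168% of all genes did, and the smallest adjusted p was 0.844. An unadjusted p under 0.05 was reached by 0 of 9 as well, against 6.5% of all genes. Of the 9 log2 fold changes, mutant minus wild type, 8 were below 0, against 46.5% of all genes, and their median was -0.17, against 0.01 over all genes. That count rested on 1 mouse: without wild-type mouse 1, 3 of 9 were below 0 and the median was 0.08. The 2 groups did not overlap for 2 of 9 genes, Cfb and C3ar1, both lower in the mutants (among all genes 17.4% were lower without overlap, and 36.3% did not overlap in either direction).

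**Figure D1:**
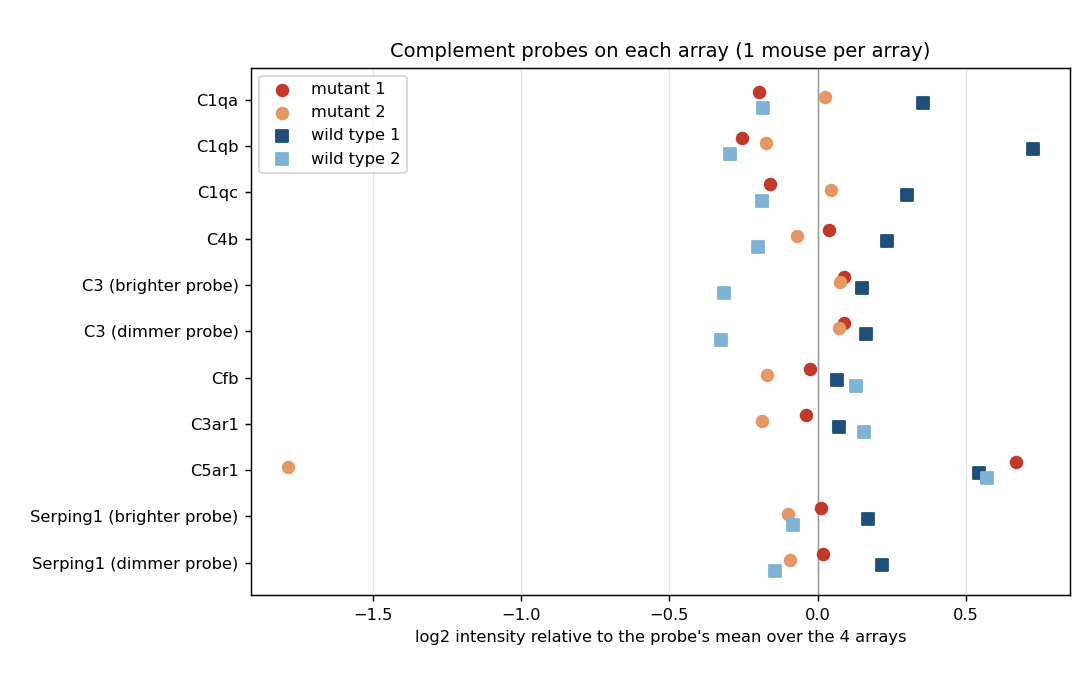
Log2 intensity of each complement probe on each of the 4 arrays (horizontal axis), relative to the mean of that probe over the 4 arrays, with 1 row per probe. Wild-type mouse 1 (dark squares) is the highest array for C1qa, C1qb, C1qc, C4b, C3 and Serping1, and mutant mouse 2 stands far to the left for C5ar1.

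The 4 arrays had between 61.21% and 64.27% of their spots well above background and 0 saturated spots. All levels below are log2 intensities relative to the 75th percentile of the array, which lay between 588.67 and 663.55, unless a value is called an intensity. The array of mutant mouse 2 has a damaged corner with dark spots, in rows 1 to 120 and columns 141 to 164, and it correlated less with the other arrays (Pearson's r across genes between 0.9828 and 0.9878) than these did among themselves (up to 0.9932). Of the 29 complement spots, 1 of the C3 spots lies in that corner. Rela itself, read by a probe in the damaged corner, stood at 4.59 and 4.72 in mutant mice 1 and 2, against 4.48 and 4.60 in wild-type mice 1 and 2, and did not pass limma's test (adjusted p = 0.888). Which exons are floxed is not stated in the sources used here, so this probe is no check of the deletion.

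C1q, the recognition molecule of the classical pathway, was described by its 3 chains. C1qa, the A chain, had processed intensities of 3851 and 4266 in mutant mice 1 and 2, against 6054 and 3905 in wild-type mice 1 and 2. C1qb, the B chain, had 2668 and 2679 in the mutants, against 5646 and 2609 in the wild-type mice. C1qc, the C chain, had 6418 and 7041 in the mutants, against 9463 and 6329 in the wild-type mice. For each chain wild-type mouse 1 stood above the other 3 mice, and wild-type mouse 2 was close to the mutants, so that the groups overlapped.

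The log2 fold changes were -0.17 ± 0.22 for C1qa, -0.43 ± 0.36 for C1qb and -0.11 ± 0.20 for C1qc (limma's moderated SE, n = 2 mice per group), with adjusted p between 0.877 and 0.939. The 95% intervals reached from -0.76 to 0.41 for C1qa, from -1.38 to 0.52 for C1qb and from -0.65 to 0.43 for C1qc, and so hold differences of either sign. Without wild-type mouse 1 the 3 differences were 0.10, 0.08 and 0.13. Between the wild-type mice the intensities, scaled to the array's percentile, differed 1.46-fold for C1qa, 2.03-fold for C1qb and 1.40-fold for C1qc. The array holds 1 probe of each C1q gene, so no second probe checks these values.

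C1qc and C3 were each spotted 10 times with 1 probe on every array, which gives the error of the measurement apart from that between mice. The C1qc spots lay between 6076 and 6684 in mutant mouse 1, between 6526 and 7323 in mutant mouse 2, between 9008 and 9802 in wild-type mouse 1 and between 6031 and 6585 in wild-type mouse 2. Their coefficient of variation on an array was 2.36% to 3.41%. For C3 it was 0.865% to 3.04%, over 9 or 10 spots an array after 2 spots with an outlier flag were left out. The C1qc spots of wild-type mouse 1 did not overlap those of any other array. For C3 the scaled log2 level averaged over the spots was 5.99 and 5.98 in the mutants, against 6.05 and 5.58 in wild-type mice 1 and 2, with an SD between spots of 0.044 or less, so that wild-type mouse 2 stood apart on the low side by more than the spread of spots. These repeats share 1 labelled RNA and say nothing of the spread between mice or labelling reactions.

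**Figure D2:**
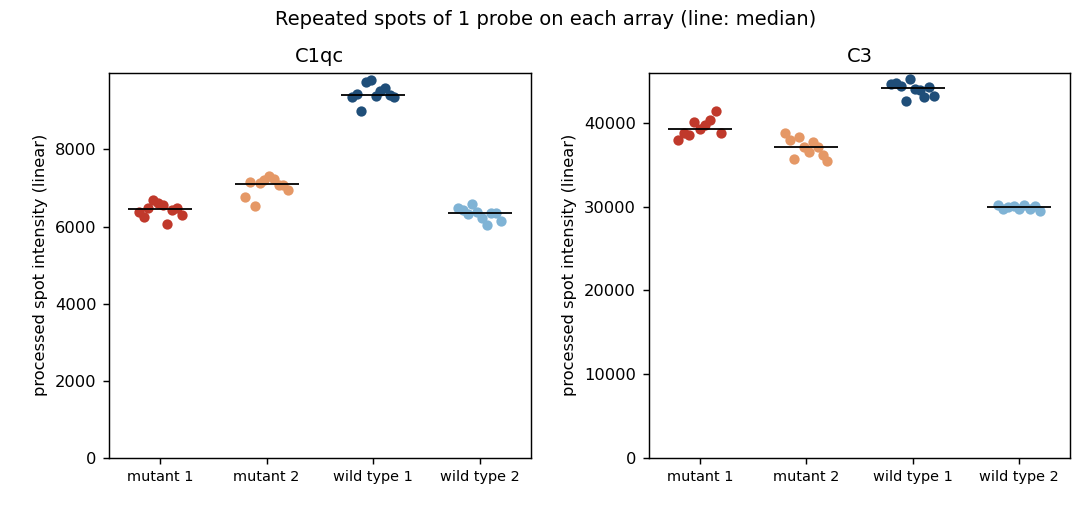
Processed intensity (linear, vertical axis from 0) of the repeated spots of the C1qc probe (left) and the brighter C3 probe (right) on each array, with the median as a line. The spots of an array lie within a few percent of each other, and those of wild-type mouse 1 lie above all others before scaling to the array's percentile; wild-type mouse 2 has the lowest C3 spots.

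C3 is the central component on which all pathways meet. Its brighter probe, at 57343416 to 57343475 on chromosome 17, had intensities of 39442 and 37091 in mutant mice 1 and 2, against 44032 and 29911 in wild-type mice 1 and 2. Both mutants lay between the wild-type mice. The log2 fold change was 0.17 ± 0.19 (95% interval -0.33 to 0.66, adjusted p = 0.90). C3 was the only member above 0, and its sign turned to -0.07 without wild-type mouse 2. The dimmer probe, printed above, gave intensities of 21573 and 20248 in the mutants, against 24294 and 16238 in the wild-type mice, and a log2 fold change of 0.16 ± 0.19, so that the 2 probes differed by less than the error of either.

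C4b, the classical-pathway component cleaved by the C1 complex, had intensities of 19019 and 16747 in mutant mice 1 and 2, against 23318 and 16188 in wild-type mice 1 and 2. The mutants again lay between the wild-type mice, and the log2 fold change was -0.03 ± 0.18 (95% interval -0.51 to 0.45, adjusted p = 0.983). It was 0.19 without wild-type mouse 1.

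Cfb, the protease of the alternative pathway, had intensities of 9268 and 7976 in mutant mice 1 and 2, against 10575 and 10383 in wild-type mice 1 and 2. On the scaled log2 levels, 3.90 and 3.76 in the mutants and 3.99 and 4.06 in the wild-type mice, the groups did not overlap. The log2 fold change was -0.19 ± 0.11 (95% interval -0.50 to 0.11) and did not pass the test (unadjusted p = 0.153, adjusted p = 0.855). It was below 0 in all 17 alternative settings, from -0.27 to -0.12. As the groups did not overlap, leaving out 1 mouse could not turn its sign, and several settings leave the value as it was.

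The receptors were dimmer spots. C3ar1, the receptor of C3a on myeloid cells, had intensities of 359 and 308 in mutant mice 1 and 2, against 416 and 414 in wild-type mice 1 and 2, with no overlap between the groups. Its log2 fold change was -0.23 ± 0.12 (95% interval -0.54 to 0.08, unadjusted p = 0.112, adjusted p = 0.844 by limma). It lay between -0.30 and -0.15 over the 17 alternatives, where again leaving out 1 mouse could not turn its sign.

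C5ar1, the receptor of C5a on neutrophils and macrophages, had intensities of 148 and 25.7 in mutant mice 1 and 2, against 146 and 139 in wild-type mice 1 and 2. Mutant mouse 2 stood apart: its scaled log2 level was -4.52, with -2.06 in mutant mouse 1 and -2.19 and -2.16 in the wild-type mice. The log2 fold change was -1.12 ± 0.82 (95% interval -3.31 to 1.07, adjusted p = 0.875), and 0.11 without mutant mouse 2. With another background correction, limma's normexp, it was -0.53. Without mutant mouse 1, so that mutant mouse 2 stood alone for its group, it was -2.34 and passed limma's test (adjusted p = 0.0447), as did 84 of 24407 genes in that fit (0.344%).

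The C5ar1 spot, in row 176 and column 69, lies outside the damaged corner. The 39 neighbouring spots within 4 rows and columns that were bright on the other 3 arrays had a median difference of mutant mouse 2 from those arrays of 0.06, the lowest at -0.66, whereas the C5ar1 spot had -2.36. Of all such spots on the array, those of the damaged corner included, 0.396% were as low or lower. The array carries 1 C5ar1 probe, at 16832243 to 16832302 on chromosome 7, so no other probe checks this value. Csf3r, the receptor of the growth factor G-CSF on neutrophils, stood at 6.91 and 6.85 in the mutants against 6.93 and 6.98 in the wild-type mice. The macrophage gene Csf1r stood at 5.32 and 5.13 in the mutants against 5.38 and 5.32 in the wild-type mice. Over the whole lists, mutant mouse 2 was the lowest of the 4 mice for 8 of 12 macrophage and monocyte markers and for 4 of 11 neutrophil markers. It was also the lowest for 6 of 6 skeletal muscle and 5 of 6 adipocyte markers, so this was not particular to myeloid lists. For T cell, keratinocyte and mast cell markers it was the lowest for 0 of 7, 0 of 8 and 0 of 6. The part of macrophages and neutrophils in the C5ar1 value was not tested.

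Serping1, the inhibitor of C1r and C1s, had intensities of 12194 and 10747 in mutant mice 1 and 2, against 14600 and 11493 in wild-type mice 1 and 2, at its brighter probe. The groups overlapped, and the log2 fold change was -0.09 ± 0.14 (95% interval -0.45 to 0.28, adjusted p = 0.926). The dimmer probe, which reads across an intron, gave 6861 and 6035 in the mutants, against 8426 and 6169 in the wild-type mice, and a log2 fold change of -0.07 ± 0.16. The 2 probes of Serping1 differed by less than their errors.

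**Figure D3:**
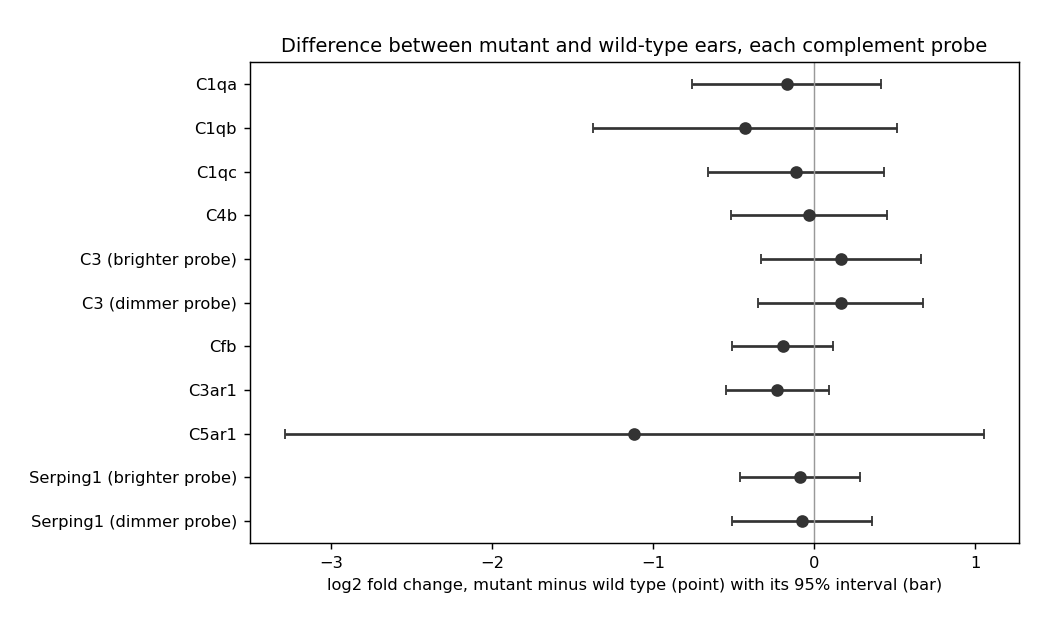
Log2 fold change (horizontal axis, mutant minus wild type) of each of the 11 complement probes with its 95% interval from limma over all probes tested. All 11 intervals include 0, and the interval of C5ar1, from -3.29 to 1.06, is the widest.

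The members differed in which mouse was highest. Wild-type mouse 1 was the highest of the 4 mice for 6 of 9 genes, against 24.7% of all genes. Wild-type mouse 2 was the highest for Cfb and C3ar1, and mutant mouse 1 for C5ar1. Among the other complement genes, described below, wild-type mouse 1 was the highest for 7 of 10 early proteases and recognition proteins. It was the highest for 3 of 7 other receptors, 2 of 11 regulators and 1 of 2 terminal components. Both mutants lay between the wild-type mice for 4 of 9 genes, C1qb, C1qc, C4b and C3, against 15.2% of all genes. The 2 wild-type mice differed by a median of 0.44 on the log2 scale over the 9 genes, against 0.15 over all genes. The 2 mutants differed by a median of 0.14, against 0.14 over all genes. For 6 of 9 genes the difference between the wild-type mice was larger in size than the log2 fold change between the groups. With 2 mice in a group, an exact two-sided permutation test of a single gene cannot give a p below 0.333.

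Genes with a profile like that of C1q were looked for as a description. Those whose 4 centred log2 values were closest to the mean of the C1q chains, by root mean square distance over 4 arrays among 15371 genes with full symbols, were Gfi1 (0.0196), Bmf (0.0307), Slc14a1 (0.0327), Mstn (0.0404) and Rln3 (0.0424). Gfi1, Slc14a1, Mstn and Rln3 were read at dim probes, at -2.05, -2.45, -2.46 and -3.40 in wild-type mouse 1, and Bmf at 0.25. C1qa, C1qb and C1qc stood at 3.19, 3.09 and 3.83 in that mouse. With 4 arrays and a profile in which 1 mouse is high, such a ranking is a list of genes that were also highest in wild-type mouse 1.

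Among other genes of the system, 45 were listed by role, 44 were on the array and 30 were tested. Limma called 0 of the 30 at an adjusted p of 0.05, 4 had an unadjusted p under 0.05 with higher values in the mutants and 1 with lower values, against 2.95% and 3.55% of all genes. Their median log2 fold change was 0.04, with 18 above 0 and 12 below. Those not well above background in either group included the lectins Mbl1 and Mbl2 and the terminal components C6, C7, C8a, C8b and C9.

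Among the early proteases and recognition proteins 10 genes were tested, of which 4 were above 0 and 6 below, with a median of -0.18, and 0 had an unadjusted p under 0.05. C1rb, a C1r protease gene, had -0.28 ± 0.14, properdin (Cfp), which stabilises the alternative-pathway enzyme, -0.25 ± 0.13, and adipsin (Cfd), the protease that cleaves factor B, -0.24 ± 0.16. C1s1 and C1s2, neighbouring genes that are near-identical copies and may share signal, had -0.22 ± 0.16 and -0.16 ± 0.15. Cfd stood at 4.10 and 4.25 in the mutants, against 4.60 and 4.23 in the wild-type mice, so that wild-type mouse 1 was again the highest. Adipocytes are a main source of Cfd, and of the 6 adipocyte markers, Cfd among them, 6 of 6 were below 0.

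Of the terminal components 2 of 7 were tested. Hc, which encodes C5, stood at -3.77 and -3.32 in mutant mice 1 and 2, against -4.28 and -4.37 in wild-type mice 1 and 2, with a log2 fold change of 0.78 ± 0.18 (unadjusted p = 0.0102, adjusted p = 0.578). The groups did not overlap, at a dim probe. C8g, a chain of C8, had 0.00 ± 0.11.

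Of the regulators 11 were tested, of which 8 were above 0 and 3 below, with a median of 0.17. An unadjusted p under 0.05 with higher values was reached by 3, against 2.95% of all genes. Cd55, the decay-accelerating factor that takes apart the C3-cleaving enzymes on cell surfaces, stood at 1.32 and 1.24 in the mutants, against 0.92 and 0.95 in the wild-type mice (0.35 ± 0.10, unadjusted p = 0.0247, adjusted p = 0.702). Susd4, a membrane inhibitor of complement, stood at -0.01 and 0.37 in the mutants, against -0.57 and -0.19 in the wild-type mice (0.56 ± 0.20, adjusted p = 0.760). Cd46, a cofactor for the cleavage of C3b, had 0.42 ± 0.15 (adjusted p = 0.748) at a dim probe whose spot lies in the damaged corner. None of the regulators passed the test over all genes.

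Of the 7 other receptors tested, Itgb2, the beta chain that complement receptors 3 and 4 share, stood at 0.90 and 0.87 in the mutants, against 1.38 and 1.31 in the wild-type mice, with no overlap. Its log2 fold change was -0.46 ± 0.10 (unadjusted p = 0.00899, adjusted p = 0.570). Its partners Itgam and Itgax had 0.02 ± 0.12 and 0.14 ± 0.19. The 3 Itgam probes disagreed, with log2 fold changes from -0.46 to 0.02, and the brightest is the one given. C5ar2, the second receptor of C5a, stood at -1.01 and -1.49 in the mutants, against -1.28 and -1.51 in the wild-type mice, and did not set mutant mouse 2 apart from wild-type mouse 2.

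**Figure D4:**
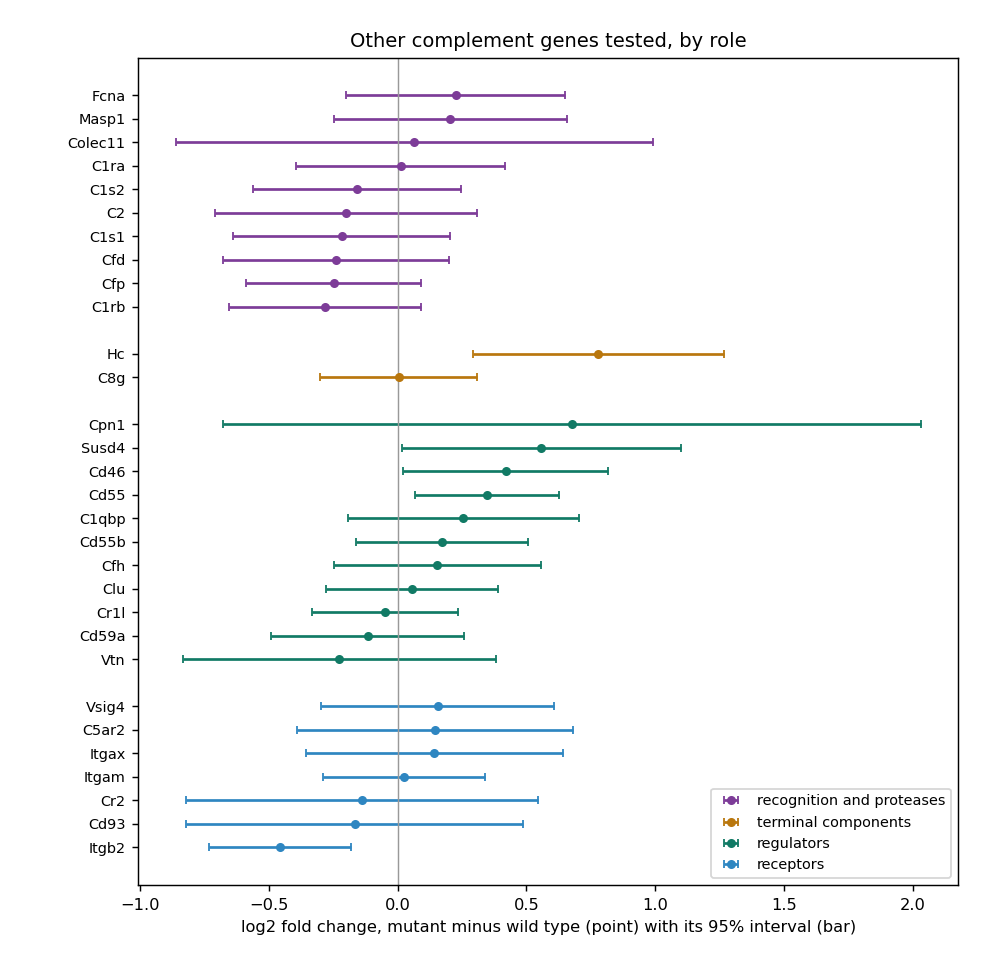
Log2 fold change (horizontal axis, mutant minus wild type) with its 95% interval for the 30 other complement genes tested, coloured by role. The intervals of Hc, Susd4, Cd46 and Cd55 lie above 0 and that of Itgb2 below 0 before adjustment; none passed the test over all genes.

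In RNA of a whole ear, fewer cells of a type and less RNA per cell cannot be told apart, so marker genes are given beside the complement values. Of 12 macrophage and monocyte markers 8 were below 0, against 46.5% of all genes. An unadjusted p under 0.05 with lower values was reached by 4, against 3.55% of all genes. These were Cd68 (-0.40 ± 0.11), Lyz2 (-0.56 ± 0.12), Ccr2 (-0.34 ± 0.12) and Fcgr1 (-0.60 ± 0.22). The median log2 fold change of the 12 was -0.14. Their summed level, as log2, was 6.78 and 6.59 in the mutants, against 6.87 and 6.80 in the wild-type mice. The defining macrophage genes Csf1r and Adgre1 had -0.13 ± 0.12 and -0.16 ± 0.12. Wild-type mouse 1 was the highest of the 4 mice for 7 of the 12 markers. Its log2 level minus that of wild-type mouse 2 had a median of 0.14 over the 12, from -0.10 to 0.61, and for 2 of them, Cd163 and Cd14, it was at least as large as the smallest such difference of a C1q chain, 0.49. The median of wild-type mouse 1 minus wild-type mouse 2 was larger over the T cell (0.298), skeletal muscle (0.243) and mast cell markers (0.236). It was below 0 over the fibroblast (-0.004), adipocyte (-0.03), keratinocyte (-0.182) and neutrophil markers (-0.184). The part of macrophage number in the C1q values was not tested.

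Of 11 neutrophil markers tested 5 were above 0 and 6 below, with a median of -0.08. Their summed level was 8.94 and 8.90 in the mutants, against 7.96 and 8.15 in the wild-type mice, of which S100a8 and S100a9, which keratinocytes of inflamed skin also express, made up 73.9% and 74.2% in the mutants, against 47.9% and 52.6% in the wild-type mice. Csf3r alone made up 24.6% and 24.1% of the sum in the mutants, against 49.2% and 44.4% in the wild-type mice. The sum therefore says little of the other neutrophil markers. The neutrophil genes Csf3r, Cxcr2 and Ly6g had -0.08 ± 0.10, 0.21 ± 0.17 and -0.09 ± 0.16. The 8 fibroblast markers had a median of 0.06, the 8 keratinocyte markers 0.13, the 6 mast cell markers 0.01, the 6 endothelial markers -0.11, the 7 T cell markers -0.16, the 6 adipocyte markers -0.27 and the 6 skeletal muscle markers -0.23. Of 6 hepatocyte genes, the markers of the main source of plasma complement, Alb, Apoa1, Ttr and Fgb were too dim to be tested, and the 2 tested, Serpina1a and Ahsg, were dim with a median of 0.48. Krt5, Krt14 and Trp63, the defining keratinocyte genes, were well above background on all 4 arrays, as were Col1a1, Dcn and Pdgfra of fibroblasts.

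Complement genes are also known as targets of interferons and NF-kB, and both lists were set beside them. Of 12 interferon-response genes 11 were below 0, against 46.5% of all genes, with a median of -0.29. An unadjusted p under 0.05 with lower values was reached by 3, against 3.55% of all genes. Irf1, an interferon-induced transcription factor, had -0.37 ± 0.17, and Gbp2, an interferon-induced GTPase, -0.87 ± 0.25 (adjusted p = 0.670 by limma). Mutant mouse 1 was the lowest of the 4 mice for 11 of the 12 genes, and wild-type mouse 1 the highest for 6. Of 8 feedback targets of NF-kB 3 were above 0 and 5 below, with a median of -0.09 and 0 with an unadjusted p under 0.05. Among them Nfkbia, which encodes the inhibitor IkB-alpha, had -0.08 ± 0.11.

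The sequence before the gene start was at hand for 5 of the 9 genes, from RefSeq promoter windows on build GRCm38.p6. In the 250 bases before the start, both strands were searched for an NF-kB motif, GGG, any 5 bases and CC, and for the interferon-gamma element, TTC, any 3 bases and GAA. The first was in 4 of 5 windows, C1qb, C1qc, C3 and C3ar1, against 45.8% of all 32851 windows, and not in that of C5ar1. The second was in 0 of 5, against 7.02% of all windows. The windows of C3, C1qb and C1qc are printed as examples, with the matches in capitals. The sequences are printed on the strand of the gene, which is the minus strand for all of them. A match of these loose letters is a description and no measured site, and matches that overlap each other run together.
C3 at chr17:57228137-57228386: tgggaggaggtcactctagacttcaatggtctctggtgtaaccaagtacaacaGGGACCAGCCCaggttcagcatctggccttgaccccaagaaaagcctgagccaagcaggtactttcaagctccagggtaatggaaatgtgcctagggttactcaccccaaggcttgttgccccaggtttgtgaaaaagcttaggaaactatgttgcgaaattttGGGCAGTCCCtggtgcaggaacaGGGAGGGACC
C1qb at chr4:136886201-136886450: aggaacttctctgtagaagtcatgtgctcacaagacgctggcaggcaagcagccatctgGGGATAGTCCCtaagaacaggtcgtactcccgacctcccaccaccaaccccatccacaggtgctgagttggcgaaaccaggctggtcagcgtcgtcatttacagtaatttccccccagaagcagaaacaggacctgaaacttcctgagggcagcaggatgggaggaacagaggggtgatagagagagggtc
C1qc at chr4:136892915-136893164: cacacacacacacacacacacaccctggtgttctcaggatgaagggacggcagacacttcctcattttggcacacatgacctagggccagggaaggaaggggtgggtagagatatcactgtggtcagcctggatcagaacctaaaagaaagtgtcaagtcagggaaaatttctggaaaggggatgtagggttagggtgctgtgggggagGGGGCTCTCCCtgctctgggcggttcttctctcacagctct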

How the data were processed

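Ear RNA (100 ng per mouse) was labelled with Cy3, per the labels' protocols, and hybridised to 4 arrays of 1 slide. Agilent Feature Extraction 10.7.3.1 made the deposited intensity of each spot, per the file headers, with a fitted background subtracted, detrending within the array and no scaling between arrays; raw mean and background intensities were used only for an alternative. The deposited flags of 0 or 1, per the file headers, mark bright and outlier spots. The authors' series table holds the ratio of each processed intensity to the array median, found from the values (within 1.5e-05 on the log2 scale for 59305 spots).

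From these, 3671 control spots were left out, outlier spots were dropped, each array's 75th percentile was subtracted from its log2 intensities, and spots of a probe were averaged. A probe was tested when well above background on both arrays of a group (33664 of 55596 probes). Each gene was represented by its brightest tested probe (23753 genes), with a separate fit over all probes. Symbols were updated through RefSeq for the 15349 genes whose accession matched, and member names are those of the files. The functions lmFit and eBayes of limma 3.58.1 in R 4.3.3 gave log2 fold changes, mutant minus wild type, with 2 residual and 2.51 prior degrees of freedom, and Benjamini-Hochberg adjustment over all genes. All tests were two-sided. The fit was tested on simulated data, with added changes larger than the difference of any member. That test does not bear on differences of the members' size. The labels speak of 2 mice per group, and the number of arrays limits the precision.

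Members and gene lists were chosen with earlier results of these data known. Besides the 9 members, the genes named are, of each other complement list, those with an unadjusted p under 0.05 or otherwise the 3 with the largest change, the first or defining genes of the marker and pathway lists described by gene, and the 5 genes closest to C1q. Lists given by their median alone have no gene named, and one further gene is not reported here. C1s1, C1s2, Cfd levels, Itgam, Itgax, C5ar2, C8g, Lyz2, Ccr2, Fcgr1, Cd14, Cd163, S100a8, S100a9, Isg15 and the genes named as too dim were named after their values were seen. The labels do not say that the replicate numbers pair the mice, and the fit did not pair them. The correlation of same-numbered deviations was -0.195, which cannot settle the question with 2 mice per group.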

Additional observations from a re-analysis of the deposited data

How the results depend on the processing

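Each result was recomputed under 17 alternatives, of which the crossed replicate block was chosen after seeing the data. With 2 mice per group, leaving out 1 mouse leaves a lone sample that is assumed to vary like the others. The number of members past the threshold lay between 0 and 1 when a mouse was left out, the 1 being C5ar1 without mutant mouse 1, where 84 of all genes passed (0.344%), and was 0 under all other alternatives. The median log2 fold change of the members lay between -0.25 and 0.0802 when a mouse was left out (0.0802 without wild-type mouse 1, when 3 of 9 were below 0). The ranges for single members when a mouse was left out were -0.44 to 0.10 for C1qa, -0.94 to 0.0802 for C1qb, -0.36 to 0.13 for C1qc, -0.25 to 0.19 for C4b, -0.0676 to 0.40 for C3, -2.34 to 0.11 for C5ar1 and -0.22 to 0.0396 for Serping1. The sign turned without wild-type mouse 1 for C1qa, C1qb, C1qc, C4b and Serping1, and without wild-type mouse 2 for C3. Without mutant mouse 2 it turned for C4b (0.02) and C5ar1. The size for C5ar1 also changed with normexp background correction, to -0.53 from -1.12. Cfb and C3ar1 kept their sign under all 17. Their groups do not overlap, so leaving out 1 mouse could not turn it. Several other alternatives change only the test or the set of genes and leave the log2 fold change as it was. Of all genes 4 passed the threshold, against 2 with quantile normalization, 2 with the percentile taken over those probes that all 4 arrays measured above background, 1 without a filter on dim probes, 1 with probes above background on all 4 arrays, 14 with trend and robust eBayes, and 0 to 84 when a mouse was left out. With the replicate number as a block 1 gene passed, and with the crossed pairing 1, and neither called a member.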
